A study of Homo sapiens with 4 samples.

Results

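Short autosomal domains were the chromatin domains of 200 kb or less on the 22 autosomes, listed separately for each of 4 Hi-C libraries of H1 cells. They were chosen by their measured length alone, and numbered 1372 among 14569 autosomal domains, or 15427 domains when the sex chromosomes were counted. Hi-C joins DNA ends that lie close together in the nucleus and reads the joined pairs by sequencing. H1 is an established line of human pluripotent stem cells (hPSCs), here grown without feeder cells. Both groups carried a lentiviral shRNA and were selected with puromycin, so the control was not untreated. The shLUC group (2 libraries) carried an shRNA against luciferase, a gene that human cells lack, and the shHNRNPU group (2 libraries) an shRNA against HNRNPU. The comparison of these groups asks whether HNRNPU bears on chromatin folding. Neither the remaining level of HNRNPU nor sequencing depth is in the interval lists, and the labels do not say whether repeats were separate cultures, so the spread between libraries may be technical.

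Contact domains, often called topologically associating domains, are stretches of a chromosome whose parts meet each other more often than they meet the neighbouring stretch. In mammalian cells most are formed by cohesin extruding loops of DNA until CTCF bound at a border stops it, and a border limits which enhancers reach a promoter. HNRNPU, also called SAF-A, is an abundant nuclear protein that binds RNA and DNA and is counted among the components of the nuclear matrix. The deposited lists divide each chromosome, in 40-kb bins, into domains, boundary regions between domains, and gaps, without overlap. A domain is called flush here where the next interval is another domain, with no boundary region or gap between. How a gap was defined is not given in the sources used here. The largest ones included stretches beside centromeres.

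Only 3 short domains met the rules for description as single regions, which required that no gap of any library touched them, and each held 1 protein-coding start site in the RefSeq promoter set (GRCh38.p14). The 1st kept the same borders in all 4 libraries, the 2nd was present in both shLUC libraries and absent from both shHNRNPU libraries, and the 3rd was the reverse. The 150 bases upstream of each start site are shown to give the sequence that these domains carry at their gene starts, with every CG dinucleotide in capitals. All are on the minus strand and are written 5′ to 3′, for ZNF692 at chr1:248859086-248859235, for WDR4 at chr21:42879540-42879689 and for TP53I11 at chr11:44951307-44951456.
ZNF692: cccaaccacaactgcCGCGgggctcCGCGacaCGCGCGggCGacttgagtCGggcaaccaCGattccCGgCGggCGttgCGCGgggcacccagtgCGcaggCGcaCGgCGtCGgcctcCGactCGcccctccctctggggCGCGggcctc
WDR4: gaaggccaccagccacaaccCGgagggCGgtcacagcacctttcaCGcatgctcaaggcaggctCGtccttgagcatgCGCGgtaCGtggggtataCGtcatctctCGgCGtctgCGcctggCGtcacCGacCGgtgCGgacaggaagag
TP53I11: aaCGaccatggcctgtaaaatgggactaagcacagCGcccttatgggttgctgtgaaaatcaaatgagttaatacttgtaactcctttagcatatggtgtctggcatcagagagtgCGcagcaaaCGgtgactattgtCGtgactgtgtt
The ZNF692 stretch held 24 CG dinucleotides and was 76.7% G or C, the WDR4 stretch held 15 and was 64.7% G or C, and the TP53I11 stretch held 5 and was 45.3% G or C. A 40-kb border cannot be placed relative to a promoter at this scale, so these sequences describe what lies within the domains and not where their borders fall.

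Short domains numbered 347 in shLUC replicate 1, 373 in shLUC replicate 2, 328 in shHNRNPU replicate 1 and 324 in shHNRNPU replicate 2. They made up 9.16%, 9.84%, 8.79% and 9.94% of the autosomal domains of those libraries, in that order, while shHNRNPU replicate 2 had the fewest domains of any length (3261, against 3730 to 3789). Since length chose them, these counts are given without a test. They covered 53.2, 58.3, 51.5 and 47.6 Mb, which was 1.77% to 2.19% of the sequence inside domains. Their median length was 160 kb in every library. Just inside the limit, domains of 200 kb numbered 110, 146, 126 and 86, and just outside it those of 240 kb numbered 138, 110, 119 and 72, so the limit cut through a continuous range. Domains of a single bin were rare (7 to 10 per library) and all of them touched a gap.

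**Figure D1:**
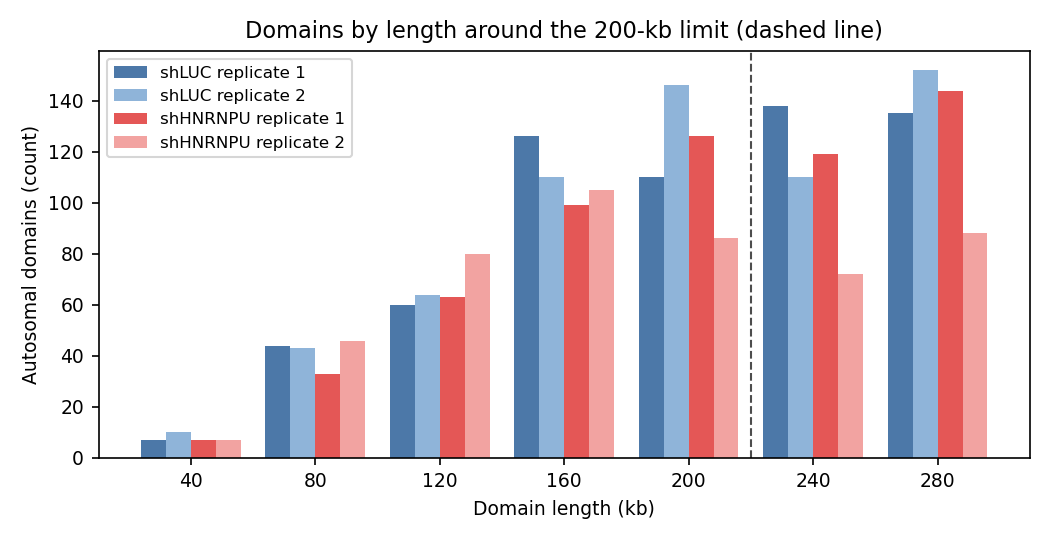
Number of autosomal domains (vertical axis) at each length from 40 to 280 kb (horizontal axis), 1 bar per library, with the 200-kb limit as a dashed line. Domains of 40 kb were the fewest (7 to 10 per library), and the counts did not break at the limit: 86 to 146 domains of 200 kb stood beside 72 to 138 of 240 kb.

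The chromosomes differed in how many of their domains were short. On chromosome 21 the share was 25.8% to 31.6% over the 4 libraries, on chromosome 22 it was 15.3% to 19.4%, and on chromosome 3 it was 4.20% to 6.74%. Chromosome 21 held 24 and 16 short domains in shLUC replicates 1 and 2, and 19 and 18 in those of shHNRNPU, of which 12 to 18 per library touched a gap and 7 to 13 lay in the first 10 Mb. By count, both shHNRNPU libraries had fewer short domains than both shLUC libraries on 5 of 22 chromosomes. On 0 of 22 both had more. The shHNRNPU libraries also listed fewer autosomal domains of any length (3730 and 3261, against 3789 in each shLUC library). As a share of each chromosome's domains, only chromosome 10 of those 5 stayed lower in both (7.22% and 8.84%, against 10.1% and 12.6%). On chromosomes 8, 9, 12 and 17 the groups overlapped by share. On chromosome 11 the share was higher in both shHNRNPU libraries (10% and 9.36%, against 8.95% and 7.94%).

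Short domains stood beside gaps far more often than longer domains did. A gap touched 36.0% and 35.4% of the short domains in the 2 shLUC libraries, against 32.6% and 28.7% under shHNRNPU. Among autosomal domains longer than 200 kb, the share was 8.44% to 10.8%, and even in the next length class, 240 to 400 kb, it was 14.6% to 17.2%. The share was higher in short domains in 4 of 4 libraries, by 23.2 ± 3.64 percentage points (SD, n = 4) against all longer domains, with an exact two-sided sign-flip p of 0.125, the smallest that 4 libraries allow. Islands with a gap on both sides made up 10.7% to 12.7% of short domains and 1.65% to 2.66% of longer ones. Short domains within 2 Mb of a gap of at least 1 Mb made up 3.49% to 4.32% of members, against 0.644% to 0.715% of longer domains.

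Boundary regions showed the opposite. They touched 14.1% and 12.9% of short domains in the 2 shLUC libraries, against 17.4% and 16.0% under shHNRNPU, compared with 25.0% to 28.1% of longer domains (lower in 4 of 4 libraries, exact two-sided sign-flip p = 0.125). Domains flush on both sides made up 50.4%, 53.1%, 50.6% and 55.9% of short domains, in the same library order, and 62.7% to 65.4% of longer ones. Among domains touching no gap, the share was instead higher for short domains in each library. Flush on both sides were 175 of 222, 198 of 241, 166 of 221 and 181 of 231 gap-free short domains. For gap-free longer domains these counts were 2157 of 3099, 2156 of 3051, 2224 of 3115 and 1907 of 2619. Chromosome ends were also over-represented. The midpoint lay within 5 Mb of the first or last listed position of the chromosome for 19.0% and 18.8% of short domains in the shLUC libraries, for 15.2% and 12.7% in the shHNRNPU libraries, and for 6.26% to 7.50% of longer domains (higher in 4 of 4 libraries, exact two-sided sign-flip p = 0.125). Domains of 240 to 400 kb lay between, at 11.4%, 11.0%, 10.4% and 7.84% by library, listed in the order used above. Short domains exceeded that class by 6.28 ± 1.66 percentage points (SD, n = 4, higher in 4 of 4 libraries). Between the groups the share of short domains differed by -4.94 percentage points (exact two-sided permutation p = 0.333). Among members touching no gap it differed by -1.35. The 240 to 400 kb class was also lower under shHNRNPU, while among all longer domains the groups overlapped. Whether the difference was particular to short domains was not tested.

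**Figure D2:**
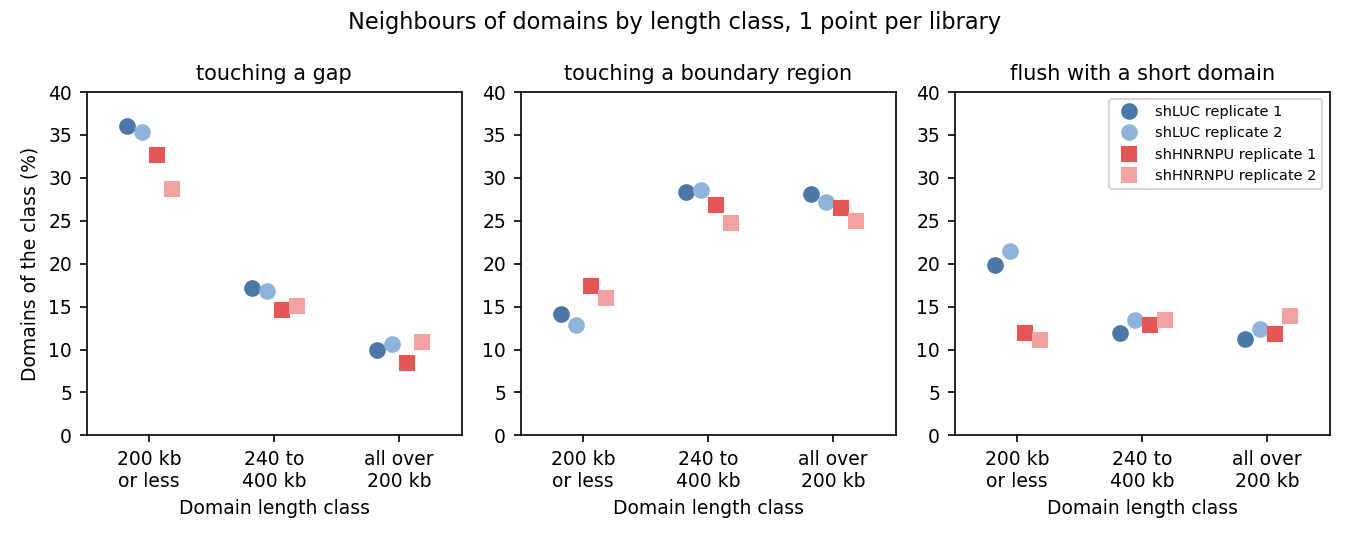
Share of domains (vertical axes, percent) that touched a gap, touched a boundary region or lay flush with a short domain, for 3 length classes (horizontal axes) and 1 point per library (circles shLUC, squares shHNRNPU). Short domains lay highest for gaps (28.7% to 36.0%) and lowest for boundary regions (12.9% to 17.4%), and in the right panel only the shLUC short domains, at 19.9% and 21.4%, rose above the other classes.

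The feature in which the groups were farthest apart for their spread was clustering. In shLUC replicate 1, 69 of 347 short domains (19.9%) lay flush with another short domain, and in shLUC replicate 2, 80 of 373 did (21.4%). In shHNRNPU replicate 1 there were 39 of 328 (11.9%), and in shHNRNPU replicate 2 there were 36 of 324 (11.1%). The groups did not overlap, but this was so for each of the 8 measures compared between groups except the share flush on both sides. The mean was 20.7% ± 1.11 (SD, n = 2) in shLUC and 11.5% ± 0.551 in shHNRNPU, a difference of -9.17 percentage points with an exact two-sided permutation p of 0.333, the smallest that 2 against 2 libraries allow. Longer domains lay flush with a short domain in 11.2% and 12.4% of cases in the 2 shLUC libraries, against 11.8% and 13.9% under shHNRNPU. The share was higher in short domains than in all longer ones in 3 of 4 libraries, with a difference of 3.73 ± 6.03 percentage points (SD, n = 4, exact two-sided sign-flip p = 0.375). The difference was also seen among short domains that touched no gap, where 20.7% and 24.1% in shLUC compared with 11.3% and 10.4% in shHNRNPU. Without chromosome 21 it was -9.13 percentage points. The shHNRNPU libraries also had fewer short domains (328 and 324, against 347 and 373) and fewer autosomal domains in all (3730 and 3261, against 3789 in each), and the part of these numbers in the difference was not tested.

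Runs of flush short domains were never longer than 3. There were 33 and 38 runs of 2 or 3 in the control pair, and 19 and 17 in the knockdown pair. Runs of 3 numbered 3, 4, 1 and 2 in the same order. The first run of 3 by position in shLUC replicate 1 was chr9:93160001-93520000, divided into domains of 160, 120 and 80 kb, over the start sites of WNK2, a kinase of the WNK family, FAM120A and FAM120AOS. In each of the other libraries it fell in 1 domain, of 800, 960 and 2080 kb. In shLUC replicate 2 the run was chr2:74240001-74840000, 3 domains of 200 kb with 21 start sites, among them DCTN1, a dynactin subunit, and HK2, hexokinase 2. No short domain overlapped this run in any other library. The only run of 3 in shHNRNPU replicate 1 was chr11:118200001-118600000, which held 8 start sites, including that of KMT2A, a histone H3 lysine methyltransferase. Its first domain, of 160 kb, was listed with the same borders in shLUC replicate 1, where the rest of the run lay in a domain of 1960 kb. The whole run lay in a domain of 2240 kb in shLUC replicate 2 and in one of 480 kb in shHNRNPU replicate 2. In shHNRNPU replicate 2 the first run was chr1:7520001-7960000, with the start sites of VAMP3, PER3, UTS2 and TNFRSF9. It overlapped 1 domain of 1120 kb in shLUC replicate 1 and 1 of 640 kb in shLUC replicate 2, followed by boundary regions, and lay wholly in boundary regions in shHNRNPU replicate 1. None of these runs touched a gap, and no run of 3 was listed as a run of 3 in a different library.

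Few short domains recurred. Over the 4 libraries there were 1167 different intervals, of which 1046 (89.6%) were listed as a domain in 1 library, 67 in 2, 24 in 3 and 30 in all 4. Of the 872 intervals that touched no gap in the libraries that listed them, 836 were in 1 library and 1 was in all 4. Of the 295 that touched a gap, 29 were in all 4. Intervals shared by exactly 2 libraries numbered 18 for the shLUC pair, 11 for the shHNRNPU pair and 7 to 12 for pairs across the groups.

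The 30 intervals common to all libraries lay mostly at gap edges, 17 with a gap on both sides and 12 with a gap on 1 side in every library. Chromosomes 9 and 21 held 7 each, and chromosome 10 held 4. No protein-coding start site was listed in 19 of the 30. The most gene-rich was chr1:228360001-228560000, an island of 200 kb between gaps with the start sites of 5 genes, TRIM17 and RNF187, which encode RING finger proteins, and the histone genes H3-4, H2AC25 and H2BC26. Another island, chr21:43280001-43480000, held the start site of SIK1, a salt-inducible kinase. On chromosome 9, 5 of the 7 lay between 60520001 and 61480000, with the start sites of SPATA31A5, SPATA31A7 and CNTNAP3C, members of families of closely related copies, in which short reads are hard to place.

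The only interval away from gaps that was listed in all 4 libraries was the last one of chromosome 1, chr1:248840001-249000000, 160 kb long in all 4 libraries. It contained the start site of ZNF692, a zinc finger gene. Its left neighbour was a flush domain of 960, 1120 and 800 kb in the first 3 libraries, and a boundary region of 120 kb in shHNRNPU replicate 2. On its right the chromosome ended, so that border was fixed by the sequence and 1 border alone recurred.

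To follow a short domain from library to library, it was set against the interval that overlapped it most in the other library. It was called kept if that interval was a domain with both borders within 1 bin, widened if the domain reached more than 1 bin past it on 1 side, absorbed if it did so on both sides, and otherwise shifted or lying in a boundary region or gap. Over the 12 ordered pairs of libraries, 19.0% to 27.3% of short domains were kept, 39.9% to 47.5% widened, 11.7% to 34.0% absorbed and 2.31% to 16.7% found in a boundary region. A domain chosen for being short in 1 library has more room to be longer than to be shorter in another. Widening and absorption, and with them a lower share kept than among longer domains, are thus in part a property of the choice.

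Whether a short domain was kept went with its gap contacts. Those with a gap on both sides were kept in 55.8% to 75.7% of cases over the 12 pairs, those with a gap on 1 side in 28.1% to 48.6%, and those touching no gap in 6.49% to 15.8%. Averaged over the libraries, islands between gaps were kept more often than gap-free members by 56.0 ± 5.31 percentage points (SD, n = 4; higher in 4 of 4 libraries, exact two-sided sign-flip p = 0.125). Both borders of an island are gap edges by definition, so an island is kept wherever the gaps beside it recur. How often gaps recurred was not tested, and the comparison cannot separate this from a property of the domains. Gap-free domains of 240 to 400 kb were kept in 17.3% to 34.6% of cases and all longer gap-free domains in 25.3% to 38.0%. Of the gap-free short domains, 162 of 222 and 171 of 241 in the shLUC libraries, and 167 of 221 and 190 of 231 in the shHNRNPU libraries, were kept in none of the other three libraries. Exactly 1 gap-free member of each library, the ZNF692 domain, was kept in all of the others.

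**Figure D3:**
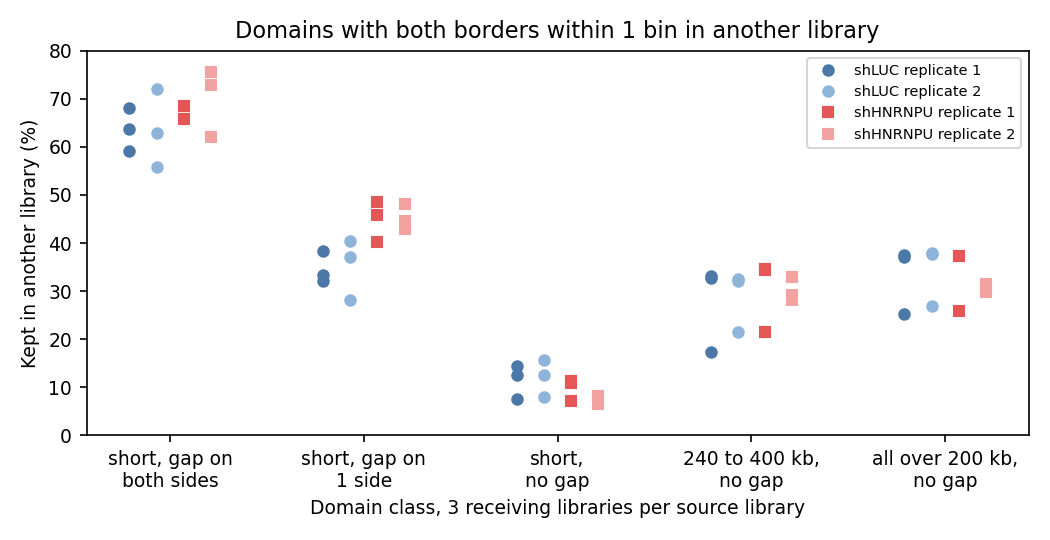
Percent of domains kept in another library (vertical axis) by length class and gap contact (horizontal axis), with 3 receiving libraries for each source library, given by colour. Short domains with a gap on both sides lay between 55.8% and 75.7%, and short domains touching no gap between 6.49% and 15.8%, below the longer classes.

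The borders of gap-free short domains were themselves found less often than those of longer domains. Leaving out domains at chromosome ends, 33.3% to 50% of the borders of short domains had a domain border within 1 bin in the other library, against 45.8% to 64.2% for domains of 240 to 400 kb and 57.1% to 70.7% for all longer ones. The difference between short and all longer domains was -21.3 ± 1.71 percentage points (SD, n = 4; lower in 4 of 4 libraries, exact two-sided sign-flip p = 0.125). Short domains were chosen by the distance between these same borders, and a border listed in 1 library alone can itself make a domain short. The lower share is therefore in part a property of the choice, which this comparison cannot separate from other reasons. Both borders of a short domain were found in 10.6% to 25.2% of cases, 1 border in 44.8% to 62.7% and neither in 18.9% to 44.0%. Within groups 36.0% to 50% of the borders were found and across groups 33.3% to 49.8%, ranges that overlapped.

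Absorption varied with the library that received the short domains. Among members of the other three libraries, 13.6% were absorbed in shLUC replicate 1, 16.8% in shLUC replicate 2, 17.1% in shHNRNPU replicate 1 and 31.2% in shHNRNPU replicate 2. The shHNRNPU libraries were both higher, by 8.92 percentage points (15.2% ± 2.26 against 24.1% ± 9.95, SD, n = 2 each, exact two-sided permutation p = 0.333). Most of this came from shHNRNPU replicate 2, the library with the fewest domains, and without it the difference was 1.99 percentage points. The pattern was not particular to short domains. In the same library order, 5.08%, 4.94%, 5.24% and 13.6% of all longer domains of the other libraries were absorbed. For domains of 240 to 400 kb the shares were 8.18%, 7.83%, 8.92% and 21.3%. Of the gap-free short domains of shLUC replicate 1, 41.4% were absorbed in shHNRNPU replicate 2, as were 37.6% of those of its own partner, shHNRNPU replicate 1. Conversely, fewer members lay in boundary regions of shHNRNPU replicate 2 (a mean of 4.28%) than in those of the other three (10.6% to 12.4%). The absorbing domains had median lengths of 920 to 1540 kb over the 12 pairs, and the widened ones of 560 to 760 kb.

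**Figure D4:**
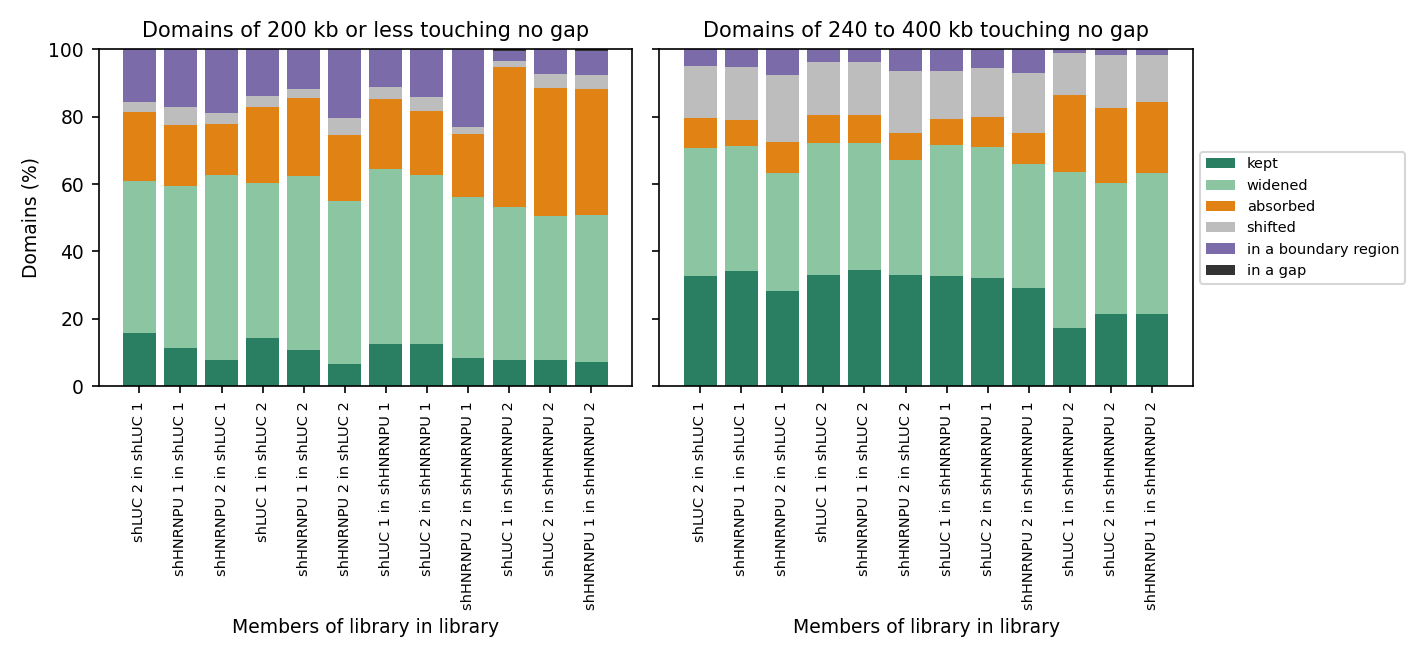
What gap-free domains of 200 kb or less (left) and of 240 to 400 kb (right) corresponded to in another library (percent of domains, vertical axis), 1 bar for each of the 12 ordered pairs (horizontal axis). Among short domains kept shares were 6.49% to 15.8%, and the last 3 bars of each panel, received in shHNRNPU replicate 2, had the largest absorbed shares.

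The share of short domains kept was 25.2% and 23.9% when the receiving libraries were shLUC and 22.7% and 20.2% when they were shHNRNPU, a difference of -3.06 percentage points (exact two-sided permutation p = 0.333). It was -1.16 without shLUC replicate 1. Lower kept shares in the shHNRNPU libraries were not particular to short domains. In the same library order, 35.2%, 35.8%, 35.1% and 26.5% of all longer domains of the other libraries were kept. For domains of 240 to 400 kb the shares were 33.6%, 35.4%, 33.1% and 21.7%, again lowest in shHNRNPU replicate 2. Members of shLUC replicate 1 that were kept in shLUC replicate 2 numbered 93, of which 36 were kept in both shHNRNPU libraries and 31 in neither. These 31 were 8.93% of its short domains, where the background over all its autosomal domains was 11.4% (433 of 3789). In the reverse direction, 69 short domains of shHNRNPU replicate 1 were kept in shHNRNPU replicate 2, 39 of them in both shLUC libraries and 14 in neither. These 14 were 4.27% of its short domains, against a background of 5.63% (210 of 3730). Both shares lay near their background and below it. Of the 31, 19 were widened or absorbed in both shHNRNPU libraries and 11 touched a gap. Of the 14, 9 were widened or absorbed in both shLUC libraries and 4 touched a gap.

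Short domains kept in both shLUC libraries and absorbed in both shHNRNPU libraries numbered 3, and 1 of these touched no gap of any library. It was chr21:42680001-42880000, with identical borders in both shLUC libraries, and held the start site of WDR4, the partner subunit of the METTL1 tRNA methyltransferase, in its last bin. A boundary region of 80 kb in shLUC replicate 1 and 160 kb in shLUC replicate 2 lay on its left, and another short domain of 160 kb on its right in both. In shHNRNPU replicate 1 it lay within chr21:42560001-43040000, a domain of 480 kb with 3 start sites, and in shHNRNPU replicate 2 within chr21:41600001-43200000, a domain of 1600 kb with 12. Each of the absorbing domains ended at a gap.

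The reverse was seen for 1 short domain, chr11:44920001-45080000, 160 kb in both shHNRNPU libraries with the same borders and touching no gap. It held the start site of TP53I11, a gene named for its induction by p53. In shLUC replicate 1 it was absorbed by chr11:44560001-45360000, a domain of 800 kb, and in shLUC replicate 2 by chr11:44560001-45160000, of 600 kb, each with 3 start sites. In shHNRNPU replicates 1 and 2, the left neighbour was a flush domain of 320 kb, and the right neighbour a flush domain of 280 and 840 kb. These regions were the extremes of a choice made from the domain lists, so they are examples and not a test.

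**Figure D5:**
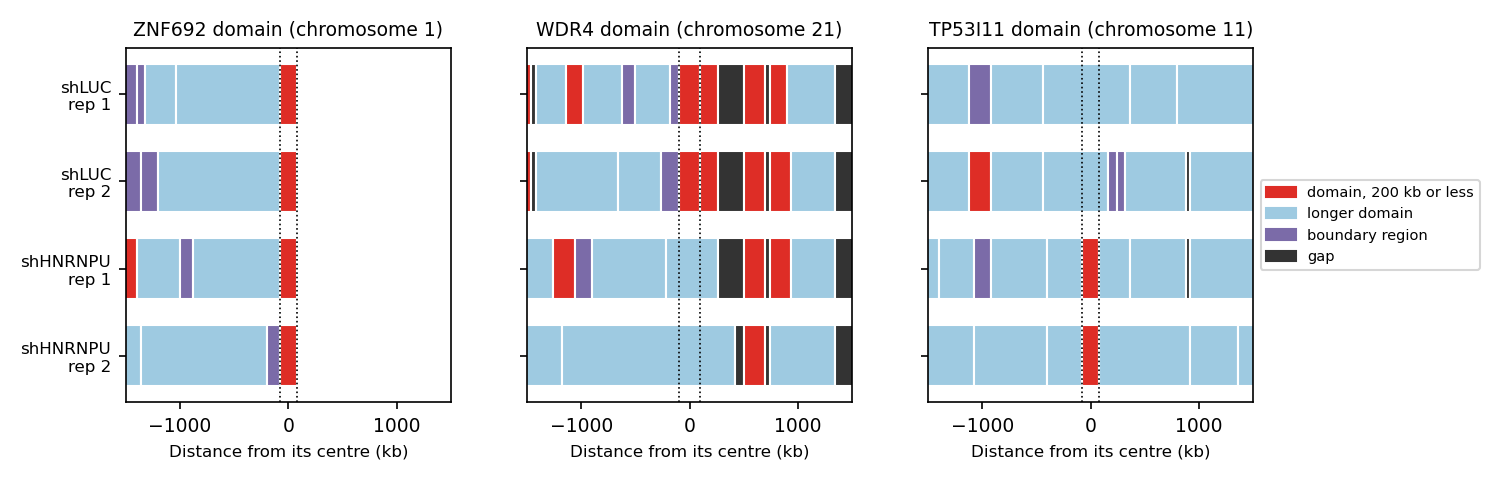
Intervals of the 4 libraries (rows) around the short domains holding ZNF692, WDR4 and TP53I11, by distance from the domain's centre in kb (horizontal axes, 1.5 Mb to each side), with the domain's borders as dotted lines. The ZNF692 domain is in every row and ends the chromosome, the WDR4 domain only in the shLUC rows and the TP53I11 domain only in the shHNRNPU rows.

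Genes were denser in short domains than in all longer ones, but not consistently so in comparison with the next length class. RefSeq start sites of 15101 protein-coding genes on 21 autosomes were counted, 1 per gene, with chromosome 8 not analysed here. This set did not hold every protein-coding gene, since 19126 had a midpoint on all 22 autosomes. A domain without a listed start site may therefore still hold a gene. Short domains held 8.39 and 9.85 start sites per Mb in the 2 shLUC libraries, against 7.66 and 7.38 under shHNRNPU. Longer domains held 5.44 to 5.66 and domains of 240 to 400 kb 8.49 to 9.03. Against all longer domains the difference was 2.79 ± 1.18 start sites per Mb (SD, n = 4; higher in 4 of 4 libraries, exact two-sided sign-flip p = 0.125), and against the 240 to 400 kb class it was -0.41 ± 1.01 (higher in 1 of 4 libraries, exact p = 0.5). Between the groups it was -1.60 (exact two-sided permutation p = 0.333), and -0.87 without shLUC replicate 2. Despite this density, 40.9% to 46.8% of short domains held no listed start site, compared with 15.3% to 24.7% in the next class, whose domains offer more length. Counted by the midpoints of 19126 protein-coding genes on all 22 autosomes, short domains held 10.74, 12.89, 9.74 and 8.999 genes per Mb. Domains of 240 to 400 kb held 10.71, 10.50, 10.48 and 10.00 in the same library order. By this count short domains were the denser class in both shLUC libraries and the sparser in both shHNRNPU libraries.

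In all, 1379 genes had their start site in a short domain of some library, 1153 of them in 1 library and 24 in all 4. The 24 included ZNF692, the TRIM17 and SIK1 islands, and TNXB, ATF6B, PRRT1 and PPT2 in the major histocompatibility region of chromosome 6. Except for ZNF692, every one of the 24 lay in domains that touched a gap in all 4 libraries. The share of all 15101 genes was 2.79%, 3.64%, 2.52% and 2.24% in the 4 libraries.

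Gene families were read against those shares. Clustered protocadherins, neuronal adhesion genes in tandem arrays on chromosome 5, had 4 of 47 start sites in short domains in shLUC replicate 1, 7 in shLUC replicate 2, 8 in shHNRNPU replicate 1 and 9 in shHNRNPU replicate 2, or 8.51% to 19.1%. PCDHAC1 and PCDHAC2 were in short domains of all 4 libraries, each beginning at chr5 position 140880001 and touching a gap. Olfactory receptors had 11, 16, 3 and 6 of 313, zinc finger genes 10, 8, 11 and 4 of 428, ribosomal protein genes 4, 2, 1 and 0 of 69, and histone genes the same number, 2 of 67, in each library. Keratins and keratin-associated proteins had 2 of 114 in shLUC replicate 2 and 0 in the others. Neighbouring genes of a family share a domain, so these counts are of few domains.

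Of the listed genes of pluripotency, 17 had a start site in the promoter set, and the rest were not assessed. Among the 17, 1 had its start site in a short domain of any library. UTF1, which encodes a chromatin protein of pluripotent cells, lay in a short domain of 200 kb in shLUC replicate 1, chr10:133120001-133320000. That domain was widened to 720 kb in shLUC replicate 2 and in shHNRNPU replicate 2, and absorbed by 1000 kb in shHNRNPU replicate 1. HOX genes are the homeobox genes that pattern the body axis. Of the 20 with a start site in the promoter set, 1 was found, HOXB1, in a short domain of 120 kb in shLUC replicate 2, chr17:48520001-48640000. In the other libraries that stretch lay in domains of 1000, 880 and 400 kb.

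Promoters of genes in short domains resembled the whole set in base composition. The 250 bases upstream of the start site had a median of 16 to 18 CG dinucleotides and 62% to 63.2% G or C in short domains, and 17 and 62.4% over all 15101 promoters. The letters TATAAA occurred on either strand in 8.68% to 9.84% of short-domain promoters and in 9.42% of all promoters. The letters AGGGGGCGC, part of the sequence that CTCF prefers, occurred on either strand in 21 of 421, 12 of 549, 13 of 380 and 7 of 338 short-domain promoters, or 2.07% to 4.99%, and in 2.36% of all. These are counts of letters in promoters, and their distance from domain borders was not used.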

How the data were processed

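Hi-C of H1 hPSCs was done by the authors with HindIII, a biotin fill-in, ligation and a streptavidin pull-down. Their processing notes name Bowtie2 and hg38. The domain caller, its settings, matrix normalization and depth are not given in the sources used here, and each can change how many short domains are listed. The authors deposited 12 interval lists, of domains, boundary regions and gaps for each of 4 libraries, with no score or count. All positions were multiples of 40 kb, intervals covered each chromosome without overlap, and 14 to 17 autosomal gaps of 0 length per library were left out. Positions are printed counting from 1. Since no count was available, no interval or floor that needs depth is given.

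Members were autosomal domains of 200 kb or less. The members, gene lists and rules were chosen with earlier results of these data known. Libraries were grouped by their titles. Each library gave 1 value per measure, and groups were compared by the exact two-sided permutation test of the means (smallest p 0.333), while short and longer domains of a library were compared by an exact sign-flip test over 4 libraries (smallest p 0.125). After Benjamini-Hochberg adjustment the lowest p was 0.381 over 8 group comparisons and 0.147 over 27 comparisons of domain classes. Described regions were short domains with the same borders in all 4 libraries (up to 10, most start sites first), those kept in both libraries of 1 group and absorbed in both of the other (up to 5, longest absorbing domain first), leaving out any that touched a gap of a library, and the first of the longest runs per library. Families were matched by symbol, counting only members with a start site in the promoter set, and other genes were singled out after their values were seen. Start sites and promoters came from RefSeq (GRCh38.p14), taking the 5′-most of each protein-coding gene. Alternatives were length limits of 160 and 240 kb, border tolerances, reciprocal overlaps of 50 and 80%, gap-free members, distances of 2 and 10 Mb, each library left out, and the replicate number as a block. Leaving out chromosome 21, other ways to count genes and crossed replicate numbers were added after seeing the data. Python 3.11.15 with numpy 2.4.6, pandas 2.3.3 and matplotlib 3.10.9 was used, and the classification was tested on simulated intervals.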

Additional observations from a re-analysis of the deposited data

How the results depend on the processing

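Of 84 alternative values of the group differences, 82 kept their sign. The exceptions were both for short domains flush on both sides, where the difference of 1.48 percentage points (shHNRNPU minus shLUC) became -3.76 among members touching no gap and ranged from -1.15 to 4.11 when 1 library was left out, the lowest without shHNRNPU replicate 2. With the replicate number as a block, the mean differences were the same values (replicate block, -9.17 percentage points for flushness with another short domain, exact two-sided sign-flip p = 0.5, the smallest 2 pairs allow). Block values, with numbers as given or crossed, equal the main difference by construction. They are counted among the 82 and could not change sign. Same-numbered libraries deviated from their group means with a correlation of -0.17 over 22 autosomes, and neither the numbers as given nor crossed numbers put any difference below 0.05 (0 and 0). Differences that moved by over 1.5 times and kept their sign included those for short domains flush on both sides at 160 kb (0.24) and for kept domains at 160 kb (-1.94), that for boundary regions at 160 kb (5.20, from 3.22), those for kept domains at 240 kb (-4.85, from -3.06), among members touching no gap (-1.76) and with borders at the same bin (-1.52), those for start sites per Mb at 160 kb (-0.79, from -1.60) and by gene midpoints (-2.45), that for distance to a chromosome end at 2 Mb (-3.03, from -4.94), and that for contact with a gap without shHNRNPU replicate 2 (-3.08, from -5.04). For absorption, leaving out 1 library gave 1.99 to 17.6 percentage points.

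The 31 short domains kept in both shLUC libraries and in neither shHNRNPU library became 14 at a limit of 160 kb, 50 at 240 kb, 20 without members touching a gap and 18 with borders at the same bin, and 41 to 258 with 1 library left out. The reverse count of 14 became 8 at 160 kb and 21 to 231 with 1 library left out. The highest values arose by construction where a group was left with 1 library and its members had no partner to be kept in. Of the 24 alternative counts, 13 were within 1.5 times the reported one. The planned comparisons of GC content and HindIII sites were not run, because no genome was used here. Depth is unknown, so its effect on the short domains could not be measured.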
